A study of Mus musculus with 4 samples.

Results

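The genes described here were Rpl22, its paralogue Rpl22l1, Trp53, and 4 genes tied to p53 by function, Mdm2, Mdm4, Ccng1 and Sesn2. They were named as a set of 7 of the 21911 protein-coding genes in the GENCODE basic annotation of mm10, and every MIZ-1 peak at them was collected from both deposited lists. ChIP-seq, the sequencing of DNA fragments that an antibody pulls down with a protein, had been done for MIZ-1 on spleen cells selected magnetically for B220, a surface marker of the B lineage. One genotype was wild type (WT), here MIZ-1WT. The other, labelled Miz-1 delta POZ and here called MIZ-1DPOZ, came from MB1-Cre x Miz-1floxPOZ mice, in which Cre driven by the B cell promoter of Cd79a removes the POZ domain of MIZ-1 in B cells. Both lines were on a C57BL/6 background, and the antibody for both was the MIZ-1 antibody H-190. Each of the 2 genotypes had 1 ChIP library, with 1 matching input, so no difference between the genotypes has a replicate check, and how many mice were pooled is not given in the sources used here. Peak lists hold no expression, so neither the B220+ label nor the deletion of the POZ domain could be checked in them.

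MIZ-1, encoded by Zbtb17, is a zinc finger transcription factor that binds DNA near gene starts and is a partner of MYC. Its POZ domain is a protein interaction domain through which MIZ-1 molecules bind each other. Rpl22 and Rpl22l1 encode alternative proteins of the large ribosomal subunit. p53, the product of Trp53, is a transcription factor that answers DNA damage and other stress with cell cycle arrest or death. MDM2 is the ubiquitin ligase that holds p53 low, and MDM4 is its partner, which also blocks p53 directly. Mdm2, Ccng1, which encodes cyclin G1, and Sesn2, which encodes the stress protein sestrin 2, are themselves induced by p53.

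The lists differed in length and depth. There were 34209 MIZ-1WT peaks and 78357 MIZ-1DPOZ peaks. For each peak the authors deposited a fold enrichment, which sets the summit against the background around it, and the −log10 of a p-value and of a q-value, the p-value adjusted over all candidate peaks. From these the summit pileup was recovered, the whole number of fragments stacked at the highest point of a peak. The median pileup was 9 over all MIZ-1WT peaks and 12 over all MIZ-1DPOZ peaks. The MIZ-1DPOZ library was estimated to be 1.34 times as deep, and pileup ratios below are divided by this factor. Over the most frequent local background, a peak needed at least 5 fragments to enter the MIZ-1WT list and at least 6 to enter the MIZ-1DPOZ list. Those levels hold for that background alone. A gene without a listed peak therefore had no stretch that passed the peak calling, and is not shown to be free of MIZ-1.

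A promoter peak was one that shared at least 1 bp with the stretch from 2000 bp before to 1000 bp after any start of the gene. Of the 7 genes, 4 had a MIZ-1WT promoter peak (Rpl22, Rpl22l1, Mdm2 and Mdm4), where 30.9% of all protein-coding genes had one. In the MIZ-1DPOZ list 5 had one (Rpl22, Mdm2, Mdm4, Ccng1 and Sesn2), against 48.7% of all protein-coding genes. Rpl22, Mdm2 and Mdm4 had promoter peaks in both lists, as did 26.7% of all genes, and in all 3 the peaks of the lists overlapped. Overlap was usual. Among the 5841 genes with promoter peaks in both lists, the best MIZ-1WT one overlapped a MIZ-1DPOZ peak at 4964. Rpl22l1 had one in the MIZ-1WT list only, as did 4.21% of all genes, and Ccng1 and Sesn2 in the MIZ-1DPOZ list only, as did 22.0%. Trp53 had none in either list, as did 47.1% of all genes. With 7 genes, these counts are a description of where peaks lay.

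**Figure D1:**
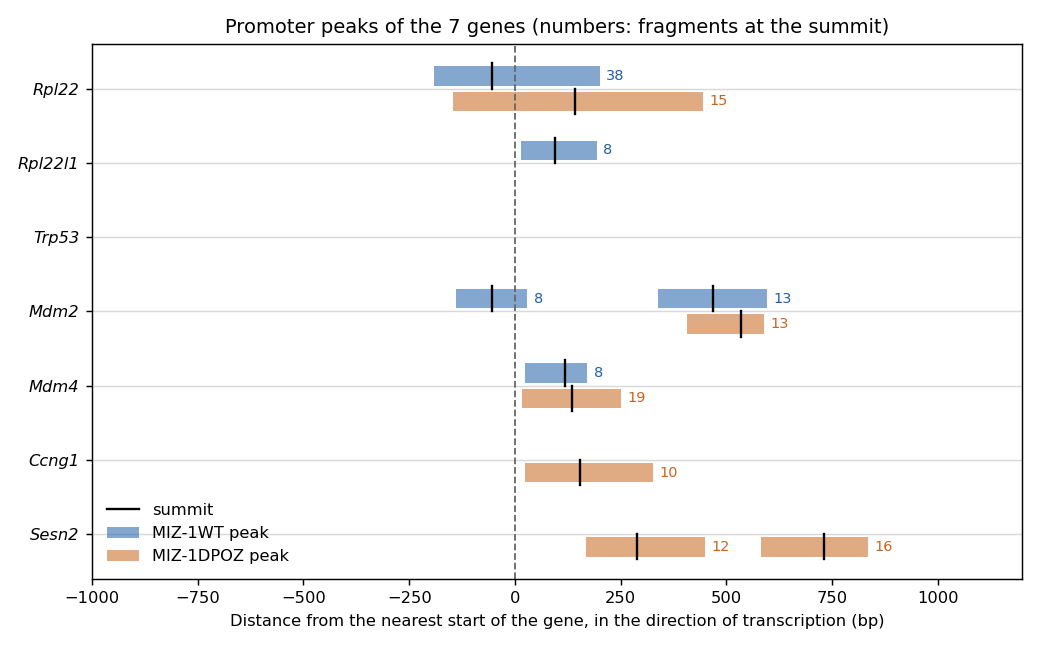
Promoter peaks of the 7 genes, drawn by distance in bp from the nearest start of each gene along the direction of transcription, with MIZ-1WT peaks in blue above and MIZ-1DPOZ peaks in orange below. Black ticks are summits and the number beside a peak is its summit pileup in fragments, highest for Rpl22 in MIZ-1WT at 38. No peak is drawn for Trp53.

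The sequences at the summits that the results turn on are printed here so that they can be compared by eye. They were read from GRCm38, the assembly of mm10, on the strand of the gene, 5′ to 3′. Around a summit outside the annotated untranslated regions, the sequence stops where such a region begins. Where the summit lies inside such a region, 29 bases around it are printed. Capitals mark matches on either strand to the words searched. There were 5 of these. The E-box bound by MYC with MAX is CACGTG. The CCAAT box reads as ATTGG on the other strand. The GC box is GGGCGG, or CCGCCC on the other strand. The p53 half-site is searched as its usual consensus. The palindrome ATCGAT was added after the Rpl22 sequence had been seen.
Rpl22 at the MIZ-1WT summit, chr4:152325784-152325812, plus strand: tgATCGATtgaagttgcctggctccttgc
Rpl22 at the MIZ-1DPOZ summit, chr4:152325962-152326062, plus strand: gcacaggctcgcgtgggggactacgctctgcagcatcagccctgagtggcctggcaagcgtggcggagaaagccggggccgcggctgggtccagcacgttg
Rpl22l1 at the MIZ-1WT summit, chr3:28805535-28805614, plus strand: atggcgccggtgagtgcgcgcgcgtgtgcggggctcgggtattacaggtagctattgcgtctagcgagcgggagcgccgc
Mdm2 at the upstream MIZ-1WT summit, chr10:117710762-117710862, minus strand: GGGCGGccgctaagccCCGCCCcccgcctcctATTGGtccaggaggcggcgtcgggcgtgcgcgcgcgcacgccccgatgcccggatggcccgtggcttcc
Mdm2 at the intronic MIZ-1WT summit, chr10:117710239-117710339, minus strand: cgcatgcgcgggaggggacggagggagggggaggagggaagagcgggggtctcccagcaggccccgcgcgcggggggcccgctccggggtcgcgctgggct
Mdm4 at the MIZ-1DPOZ promoter summit, chr1:133025152-133025247, minus strand: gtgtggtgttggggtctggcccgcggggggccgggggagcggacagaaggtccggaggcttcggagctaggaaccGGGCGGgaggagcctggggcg
Sesn2 at the stronger MIZ-1DPOZ summit, chr4:132509721-132509821, minus strand: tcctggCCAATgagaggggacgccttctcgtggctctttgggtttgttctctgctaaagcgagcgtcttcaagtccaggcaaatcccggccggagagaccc

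Rpl22 carried the strongest peak of the set. Its MIZ-1WT peak, chr4:152325662-152326054, had a fold enrichment of 15.1 and a −log10 q of 34.4, with 38 fragments over a local background of 1.58. The summit lay 55 bp before the nearest GENCODE start, in a stretch that RefSeq annotates as 5′ untranslated region. Among the 6764 protein-coding genes with a MIZ-1WT promoter peak, the best peak had a median fold enrichment of 5.26 and a median pileup of 9, and a higher fold enrichment than that of Rpl22 was found for 1.2% of them.

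In the MIZ-1DPOZ list the Rpl22 peak, chr4:152325723-152326314, was 592 bp wide, against 393 bp in MIZ-1WT, and lower. Its fold enrichment was 6.09, its −log10 q 7.80 and its pileup 15 fragments over a background of 1.63. The summit lay 143 bp after the start, in an intron, 214 bp downstream of the MIZ-1WT summit. A higher fold enrichment was found for 29.6% of the 10670 genes with a MIZ-1DPOZ promoter peak. The peaks shared 332 bp, which is 84.5% of the MIZ-1WT peak and 56.1% of the MIZ-1DPOZ peak.

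Scaled for depth, the Rpl22 pileup in MIZ-1DPOZ was 0.294 of that in MIZ-1WT, with a 95% exact (Clopper-Pearson) interval of 0.150 to 0.548. The interval covers counting error alone, holds the depth ratio fixed, and compares these libraries and not the genotypes. Without scaling the ratio was 0.395. Each pileup was taken at its own summit, so the fragments of MIZ-1DPOZ at the MIZ-1WT summit itself were at most 15. At 4964 protein-coding genes the best MIZ-1WT promoter peak was paired with the strongest MIZ-1DPOZ peak that overlapped it. Over these genes the median ratio was 1.04, and 20 genes (0.403%) had a lower ratio than Rpl22. Strong MIZ-1WT peaks leave more room for a low ratio. Among the 107 genes whose mean depth-scaled pileup was within 1.5 times that of Rpl22, the median ratio was 0.949 and 15 genes (14.0%) lay lower. That match is on the mean of both lists and does not hold MIZ-1WT strength equal. The ratio at like MIZ-1WT pileup was not summarised. At genes with 36 to 39 MIZ-1WT fragments, the MIZ-1DPOZ pileups ran from 13 to 83, with 15 at Rpl22.

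**Figure D2:**
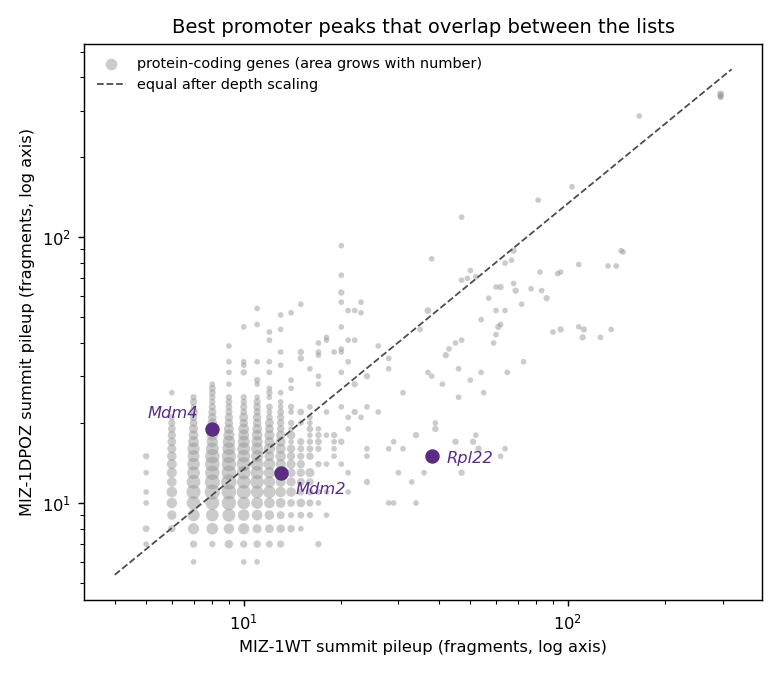
Summit pileup in fragments for 4964 protein-coding genes, with grey area growing with the number of genes at a point. The horizontal log axis is the best MIZ-1WT promoter peak. The vertical log axis is the strongest MIZ-1DPOZ peak that overlaps it. The dashed line marks equal pileup after depth scaling. Rpl22 (38 and 15 fragments) and Mdm2 (13 and 13) lie below it, and Mdm4 (8 and 19) above it.

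The palindrome ATCGAT lay inside the Rpl22 peak of both lists, at chr4:152325786-152325791. Its centre was 10 bp upstream of the MIZ-1WT summit and 224 bp upstream of the MIZ-1DPOZ summit. None of the other 16 peaks at the 7 genes held it. Within 100 bp of the summit it occurred at 0.435% of all 7584 MIZ-1WT promoter peaks and at 0.449% of all 13152 MIZ-1DPOZ promoter peaks.

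The share with ATCGAT was higher among strong MIZ-1WT promoter peaks. It was 9 of 6431 peaks with under 12 fragments, 6 of 1018 with 12 to 19, 12 of 58 (20.7%) with 20 to 39, the class that holds Rpl22, and 6 of 77 (7.79%) with 40 or more. In the MIZ-1DPOZ list the same classes held it at 19 of 5570, 34 of 6953, 2 of 526 and 4 of 103 peaks. The classes were not scaled for depth, so the same class does not hold peaks of equal strength in both lists. Leaving out summits that are over 50% repeat-masked, 18 of 110 MIZ-1WT promoter peaks with 20 or more fragments had it, against 14 of 7186 below 20. The word was chosen because it stands at the Rpl22 summit and the classes were set afterwards, so these shares were not tested, and Rpl22 is itself 1 of the 12.

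**Figure D3:**
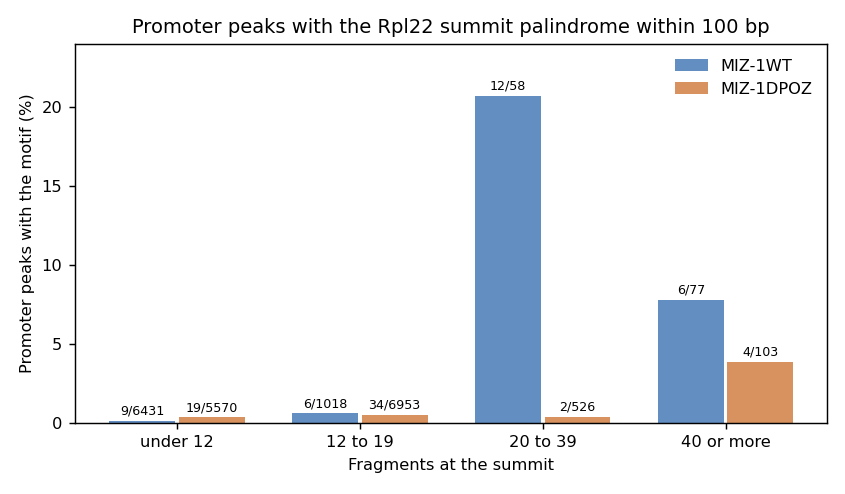
Share in percent of promoter peaks with the ATCGAT palindrome within 100 bp of the summit, by the number of fragments at the summit, for MIZ-1WT (blue) and MIZ-1DPOZ (orange), with the counts above the bars. In MIZ-1WT the share was 20.7% at 20 to 39 fragments, 12 of 58 peaks, and in MIZ-1DPOZ 2 of 526. Fragment numbers are not scaled for depth.

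The rest of the sequence at the Rpl22 summits differed as well. The 100 bp on each side of the MIZ-1WT summit were 63.2% GC, below the lower quartile of MIZ-1WT promoter peaks, 69.2%, and contained 16 CpG dinucleotides against a median of 23. They held no E-box, CCAAT or GC box, words that occur at 4.63%, 9.28% and 65.1% of MIZ-1WT promoter summits. Around the MIZ-1DPOZ summit the GC content was 74.1%, with 24 CpG, 1 E-box and 2 GC boxes. Over MIZ-1DPOZ promoter peaks the median GC content was 70.65%, with an upper quartile of 75.1%, and the median CpG count was 20. An E-box occurred at 3.79% of them and a GC box at 56.2%. The Rpl22 E-box was 69 bp after the start, inside both peaks. Such a match is a run of letters and does not show that a factor binds there.

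Against its own class, the 86 genes of cytosolic ribosomal proteins, Rpl22 stood at the top in MIZ-1WT. A MIZ-1WT promoter peak was present at 18 of them (20.9%), with a median fold enrichment of 4.84, and no other gene of the class exceeded that of Rpl22. In MIZ-1DPOZ 26 (30.2%) had one, with a median of 5.06, and 4 exceeded Rpl22. Both shares were below those of all protein-coding genes, 30.9% and 48.7%.

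Rpl22l1, whose product can take the place of RPL22 in the ribosome, had a weak MIZ-1WT peak, chr3:28805484-28805662. The summit lay in an intron, 95 bp after the nearest start, with 8 fragments, a fold enrichment of 4.84 and a −log10 q of 3.28. The same peak lies in the promoter window of the non-coding gene Gm32950. No MIZ-1DPOZ peak was listed there. A higher best fold enrichment was found for 58.3% of genes with a MIZ-1WT promoter peak. Its summit sequence held 26 CpG and none of the 5 words.

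Trp53 had no promoter peak in either list. Wrap53, which lies head to head with it and gives rise to antisense transcripts of Trp53, had none either. The only peak at Trp53 was in the MIZ-1DPOZ list, chr11:69589670-69589894, over a coding exon 9418 bp after the nearest start. It had 11 fragments, a fold enrichment of 5.03 and a −log10 q of 4.97. Of the 7820 genes within a factor of 2 of the length of Trp53 (11515 bp), 31.1% had a MIZ-1DPOZ peak in the gene body, which is the annotated gene outside its promoter windows.

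Mdm2 was the single gene of the set with a separate pair of MIZ-1WT promoter peaks. The upstream one, chr10:117710729-117710897, had its summit 54 bp before the start, with 8 fragments, a fold enrichment of 4.55 and a −log10 q of 2.99. The 100 bp on each side of it held 1 CCAAT box, 2 GC boxes and 30 CpG, the highest CpG count at any summit of the set. This upstream peak overlapped no MIZ-1DPOZ peak.

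The intronic peak of Mdm2 was present in both lists. In MIZ-1WT, chr10:117710161-117710419, it had 13 fragments, a fold enrichment of 7.14 and a −log10 q of 7.59, 469 bp after the start. In MIZ-1DPOZ, chr10:117710169-117710352, it had 13 fragments, a fold enrichment of 5.96 and a −log10 q of 6.90, 534 bp after the start. Neither summit held any of the 5 words within 100 bp. The depth-scaled ratio was 0.746, with an interval of 0.319 to 1.75 that covers both equal pileups and a change by over 1.5 times in either direction. A lower ratio was found for 12.8% of the 4964 genes.

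Mdm4 had the strongest MIZ-1DPOZ promoter peak of the set. In MIZ-1WT its promoter peak, chr1:133025167-133025314, had 8 fragments, a fold enrichment of 4.62 and a −log10 q of 3.09, with the summit in an intron 119 bp after the nearest start. In MIZ-1DPOZ, chr1:133025088-133025321, it had 19 fragments, a fold enrichment of 8.52 and a −log10 q of 13.3, 136 bp after the start. A higher fold enrichment was found for 75.2% of genes in MIZ-1WT and for 3.33% in MIZ-1DPOZ. The depth-scaled ratio was 1.77, with an interval of 0.740 to 4.68 that includes 1. It exceeded the ratio of 94.5% of the 4964 genes. Both summits held 2 GC boxes, a word present at 65.1% and 56.2% of the promoter summits of the lists. The pseudogene Gm29257 shares this window.

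**Figure D4:**
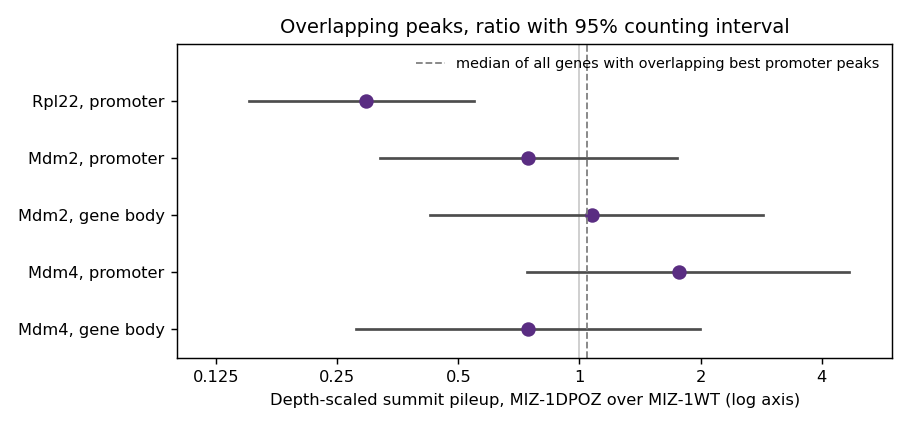
Depth-scaled summit pileup in MIZ-1DPOZ over MIZ-1WT (log axis) at the 5 overlapping pairs of peaks of the set, with points for the ratio and lines for its 95% exact counting interval. The interval for Rpl22, 0.150 to 0.548, lies below 1, and the 4 others include 1. The dashed line is the median over genes whose best MIZ-1WT promoter peak overlaps a MIZ-1DPOZ peak, 1.04.

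Ccng1 and Sesn2, both p53 targets, had promoter peaks in the MIZ-1DPOZ list only. At Ccng1 the peak, chr11:40754985-40755288, had its summit in the 5′ untranslated region, 155 bp after the start, with 10 fragments, a fold enrichment of 4.68 and a −log10 q of 4.19. It was among the weaker peaks, since 70% of genes with a MIZ-1DPOZ promoter peak had a higher best fold enrichment.

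Sesn2 had a pair of MIZ-1DPOZ promoter peaks. The stronger, chr4:132509665-132509919, lay in an intron 730 bp after the start, with 16 fragments, a fold enrichment of 7.08 and a −log10 q of 9.72. It was closer to the start of the antisense gene Gm12981, at 122 bp. The other, chr4:132510052-132510332, lay in the 5′ untranslated region 288 bp after the start, with 12 fragments, a fold enrichment of 5.54 and a −log10 q of 5.96. No MIZ-1WT peak was listed at either place. One CCAAT box and 1 GC box lay within 100 bp of the stronger summit, and the weaker held none of the 5 words.

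In the gene bodies, MIZ-1WT peaks were listed at Mdm2, Mdm4 and Sesn2, where 23.3% of all protein-coding genes had one, and MIZ-1DPOZ peaks at Trp53, Mdm2 and Mdm4, against 41.8%. Counting promoter and body together, 5 of the 7 genes had a MIZ-1WT peak and 6 a MIZ-1DPOZ peak, against 43.9% and 65.3% of all genes. Longer genes have more room for such a peak. Among genes within a factor of 2 of the length of Mdm4 (65933 bp), 40.2% had a body peak in MIZ-1WT and 69.3% in MIZ-1DPOZ. For Mdm2 (21884 bp) the same shares were 19.9% and 44.2%.

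The body peaks of Mdm2 and Mdm4 stood on or beside repeats. In Mdm2 the peaks of both lists overlapped in the 3′ untranslated region, at chr10:117689471-117689618 with 9 fragments in MIZ-1WT and at chr10:117689435-117689643 with 13 in MIZ-1DPOZ, for a ratio of 1.08 (interval 0.426 to 2.86). The stretches under the summits run into a CA repeat.
Mdm2 at the MIZ-1WT body summit, chr10:117689554-117689582, minus strand: tgcacgcacacacacgcgcgcgtgcgcac
Mdm2 at the MIZ-1DPOZ body summit, chr10:117689528-117689556, minus strand: cacacacacacacacacacacacacacac

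In Mdm4 a first intronic place was listed in both, at chr1:133017017-133017196 with 10 fragments in MIZ-1WT and at chr1:133017018-133017190 with 10 in MIZ-1DPOZ, for a ratio of 0.746 (interval 0.279 to 2.00). The 100 bp on each side of these summits were 80.1% and 87.1% repeat-masked, and 1 of the sequences of 50 bases taken around the MIZ-1WT summit occurs 8852 times in the genome. A further MIZ-1WT peak, chr1:133010215-133010394, with 11 fragments and a fold enrichment of 6.45, lay in a stretch that was 93% repeat-masked. Within 100 bp of its summit, though not wholly inside the peak, was the only match to the p53 half-site at any summit of the set. Over promoter summits, the word was found at 2.39% in MIZ-1WT and 2.91% in MIZ-1DPOZ. Its share over gene-body summits was not counted. The part of repeats in these body peaks was not tested.

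**Figure D5:**
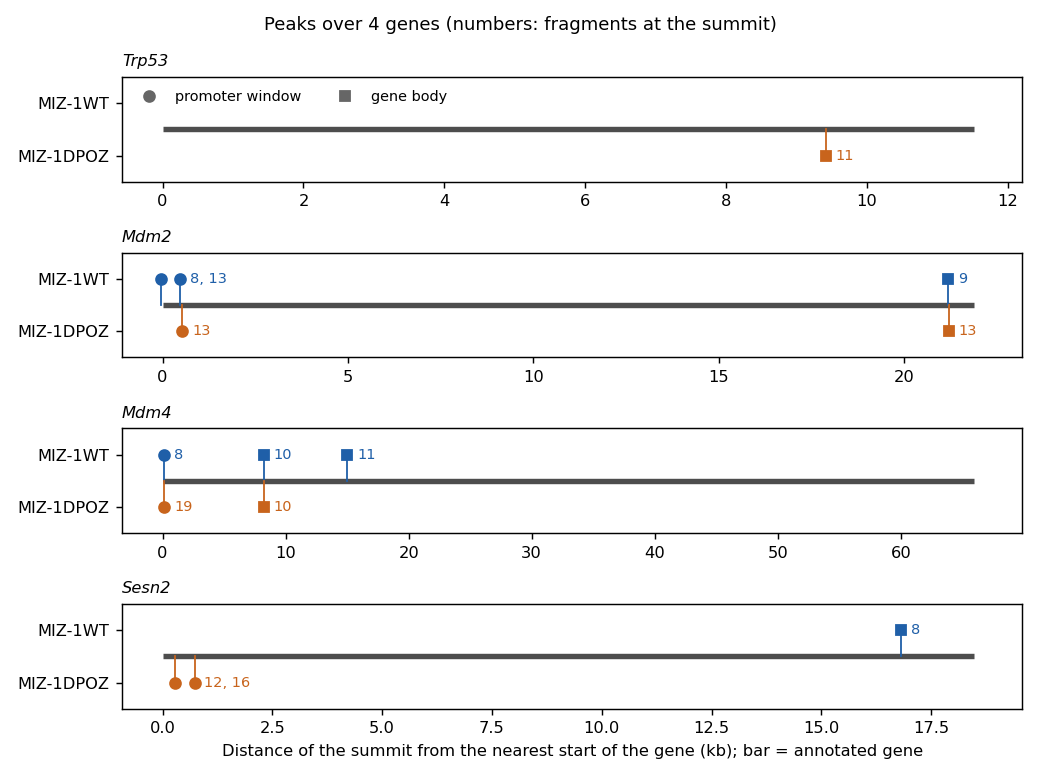
Summits over the 4 genes of the set with a gene-body peak, by distance in kb from the nearest start of the gene, with MIZ-1WT above the gene bar in blue and MIZ-1DPOZ below in orange. Circles are promoter peaks and squares body peaks, numbers are summit pileups in fragments from left to right, and the body peaks of Mdm2 (9 and 13) and the first body peaks of Mdm4 (10 and 10) face each other.

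The Sesn2 body peak, chr4:132493608-132493755, was listed in MIZ-1WT only, in the 3′ untranslated region, with 8 fragments, a fold enrichment of 4.80 and a −log10 q of 3.28. Its summit region held no masked base. Sesn2 thus had its MIZ-1WT peak near the end of the gene and its MIZ-1DPOZ peaks near the start. Among genes within a factor of 2 of its length (18470 bp), 18% had a MIZ-1WT body peak.

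The wider p53 pathway was counted over 22 genes that regulate p53 and 26 that p53 induces, none of them among the 7. Of the regulators, 11 (50%) had a MIZ-1WT promoter peak, 17 (77.3%) a MIZ-1DPOZ one and 8 both, beside 30.9%, 48.7% and 26.7% of all protein-coding genes. Chek1, Rpl23 and Trp53bp1 (13.6%, beside 4.21% of all genes) had one in MIZ-1WT only, 9 genes (40.9%, beside 22.0%) in MIZ-1DPOZ only, and Chek2 and Wrap53 (9.09%, beside 47.1%) in neither. Of the targets, 14 (53.8%) had a MIZ-1WT peak, 16 (61.5%) a MIZ-1DPOZ peak and 12 both. A peak in MIZ-1WT only was listed for 2 targets (7.69%, beside 4.21%) and in MIZ-1DPOZ only for 4 (15.4%, beside 22.0%). Another 8 targets (30.8%, beside 47.1% of all genes) had none, among them Cdkn1a, Bbc3 and Fas. These shares depend on the cutoff. At a −log10 q of at least 5, regulators with a MIZ-1WT peak were 2 of 22 (9.09%) beside 9.79% of all genes, and targets with a MIZ-1DPOZ peak 9 of 26 (34.6%) beside 33.3%. The first of these fell below the share of all genes, and the second stayed just above it. The other pairs also stayed above. Regulators with a MIZ-1DPOZ peak were 12 of 22 (54.5%) and targets with a MIZ-1WT peak 4 of 26 (15.4%), beside the same shares of all genes. With both lists at the same number of peaks, targets with a MIZ-1DPOZ peak were 5 of 26 (19.2%), below the 25.3% of all genes. Regulators with one were 10 of 22 (45.5%), above it.

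Hipk2, a kinase that phosphorylates p53, held the strongest peaks of the regulators. It had 95 fragments and a fold enrichment of 26.0 in MIZ-1WT, chr6:38876138-38876525, at −166 bp from the nearest start. In MIZ-1DPOZ it had 45 fragments and a fold enrichment of 13.9, at −148 bp. Ppm1d, the phosphatase WIP1, counts in both lists through peaks at different places, at −1775 bp from the start in MIZ-1WT (9 fragments) and at 531 bp in MIZ-1DPOZ (13 fragments).

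In the MIZ-1DPOZ list alone, the strongest regulators were Usp7, a deubiquitinase of MDM2 and p53, with 17 fragments 522 bp after the start, Atm, the DNA damage kinase, with 14 fragments, and Cdkn2a, which encodes the MDM2 inhibitor ARF, with 14 fragments at −671 bp from the nearest start. Among the targets with peaks in both lists, Ei24 had 12 fragments in each, Sesn1, which encodes sestrin 1, 10 in MIZ-1WT and 13 in MIZ-1DPOZ, and Perp 10 in each. Zmat3 (16 fragments, 19 bp after the start), Pmaip1, which encodes the death protein NOXA (15 fragments), and Polk, a translesion DNA polymerase (11 fragments), led the targets listed in MIZ-1DPOZ only. All of these but Hipk2 lay between 9 and 17 fragments, below the 38 of Rpl22 in MIZ-1WT.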

How the data were processed

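The members and gene lists were chosen with earlier results of these data known. The authors called narrow peaks with MACS2 for each genotype against its input on mm10. The submitters' processing notes name Bowtie2 2.2.6 and MACS2 2.1.0, whereas the study's methods name bwa as aligner, so the aligner is uncertain. How duplicate reads were treated, and at which q-value peaks were kept, is not given in the sources used here. The smallest −log10 q listed was 1.03 in MIZ-1WT and 1.01 in MIZ-1DPOZ, so the lists include weak peaks. The deposited columns hold fold enrichment at the summit (a ratio), and the −log10 of p-values and q-values. The peak coordinates are deposited positions, given here counted from 1.

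Summit pileup and local background were solved from the fold enrichment, taken as (pileup + 1)/(background + 1), and from the Poisson p-value. The solution was a whole number, to within 0.01 on the −log10 p scale, for 99.97% of MIZ-1WT and 99.99% of MIZ-1DPOZ peaks. The steps were first tested on simulated data. Total reads are not in the lists. The depth ratio, 1.34, is the most frequent background (0.860 and 1.35 fragments) divided by the smallest peak width (148 and 173 bp), MIZ-1DPOZ over MIZ-1WT. Intervals cover counting error only.

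Starts came from GENCODE M21 basic (55413 genes, 77221 starts). Gene body means outside the promoter windows. Body shares by length use genes within a factor of 2 of the length. Motifs, GC content and repeat masking were read within 100 bp of summits, and copies of 5 sequences of 50 bases around each were counted in GRCm38. With 1 library per genotype no test was run. All peaks at the 7 genes are named. Of the 2 p53 lists, the 3 genes with the largest −log10 q in both lists and the 3 in a single list are given values, except 1 gene that is not reported here, and others were named after their calls were seen. The letters ATCGAT were added after the Rpl22 sequence was seen, and a count of other short words at strong and weak peaks made then is not used. Python 3.11.15, numpy 2.4.6, pandas 2.3.3 and scipy 1.17.1 were used. The alternatives were stricter cutoffs, lists of the same length, other windows, other overlap rules and other scalings.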

Additional observations from a re-analysis of the deposited data

How the results depend on the processing

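Of 58 values under other settings, 48 stayed within 1.5 times the reported count, or within the interval of the reported ratio. The other 10 moved further. Counts could not be scored as reversed. A reversal was scored only for a ratio whose interval excluded 1, which held for Rpl22 alone, and 0 were found. Some settings could change nothing, since no member summit was multi-copy and the MIZ-1WT list was already the shorter one. At a −log10 q of at least 5, members with a MIZ-1WT promoter peak fell from 4 to 2 (Rpl22 and Mdm2), with 9.79% of all protein-coding genes, and members with a body peak to 1 in MIZ-1WT and 1 in MIZ-1DPOZ. The p53 regulators with a MIZ-1WT promoter peak were then 2 of 22 (9.09%) and the targets 4 of 26 (15.4%), beside the same 9.79%. The targets with a MIZ-1DPOZ peak were 9 of 26 (34.6%) and the regulators 12 of 22 (54.5%), beside 33.3% of all genes. Only the regulators in MIZ-1WT thus moved from above to below the share of all genes. A fold enrichment of at least 5 also left 2 members with a MIZ-1WT promoter peak, beside 17.2% of all protein-coding genes. With the MIZ-1DPOZ list shortened to 34209 peaks, 25.3% of all genes had a MIZ-1DPOZ promoter peak, as did 10 of 22 regulators (45.5%) and 5 of 26 targets (19.2%), so the targets turned from above to below the share of all genes. A MIZ-1DPOZ peak was then left in the gene body of 1 member and at the promoter of 4, Ccng1 dropping out. For body peaks, the share of all genes was not computed under these other settings. All 18 summits at the members were single-copy by the median rule. Scaled by the most frequent background, the Rpl22 ratio was 0.252. Summits within 100 bp were found for Mdm2 and Mdm4 and not for Rpl22. No paired analysis was possible because there was only 1 ChIP library per genotype.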
